A study of Mus musculus with 8 samples.

Results

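The clustered protocadherins are neighbouring genes on mouse chromosome 18 that encode cell-surface adhesion proteins of the cadherin superfamily. They were taken as every listed gene whose Ensembl identifier maps, in the GENCODE M21 annotation, to a Pcdha, Pcdhb or Pcdhg symbol, with pseudogenes and predicted Gm genes left out. Of 49315 listed genes, 58 met this rule, 14 in the alpha cluster, 22 in the beta cluster and 22 in the gamma cluster. The study measured polyadenylated RNA by bulk sequencing in 4 control kidneys, also called wild type in the labels, and 4 conditional knockout kidneys. The knockout concerned Kdm1a, the gene of the histone demethylase LSD1. Age, sex, strain, the Cre driver and the cells in which the allele is deleted are not given in the sources used here. The labels number the kidneys within each group without saying that they came from separate animals, so p-values measure the spread between these 8 libraries.

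As background, each alpha or gamma gene begins with its own promoter and its own large variable exon, which encodes the extracellular cadherin repeats and the membrane span. That exon is spliced to constant exons shared by the whole cluster, which encode a common end of the cytoplasmic tail. Beta genes consist of a single exon and have no constant tail. In neurons, promoters are chosen in combination, with CTCF and cohesin linking a chosen promoter to distant enhancers, and cells that carry the same combination recognise each other. The C-type members at the end of the alpha and gamma clusters (Pcdhac1, Pcdhac2, Pcdhgc3, Pcdhgc4 and Pcdhgc5) are regulated less by such choice. The clusters are known best from the nervous system, and in a kidney library any cell type of the organ or its surroundings can contribute.

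On GRCm38, the deposited tables placed the alpha cluster at chromosome 18, 36930184 to 37187661, the beta cluster at 37264938 to 37524479 and the gamma cluster at 37661793 to 37841873. The listed exons showed the architecture that the names imply. In the alpha cluster, 3 exon blocks with 2860 bases in all belonged to at least 13 of 14 members. In the gamma cluster, 3 blocks with 2116 bases belonged to at least 21 of 22 members. All 22 beta genes formed a single exon block, and 19 of them shared no exon base with another listed gene. The exceptions were Pcdhb12, with 63.5% of its bases shared with the antisense gene Gm37446, and the neighbours Pcdhb21 and Pcdhb22, which shared 455 bases. For alpha members 48.6% to 93.0% of exon bases were shared, and for gamma members 31.5% to 100%.

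How the authors' counting treated reads that match several genes, and whether it used strand, is not given in the sources used here. The counts themselves bear on the first point. Across the clusters, 8 listed genes had no exon base of their own, and 7 of them had no count in any library. The exception was Pcdhga10, with 59 counts over the 8 libraries and 2613 bases that are covered only by a gene on the opposite strand. Pcdha8 had only 2 counts in all 8 libraries although it lists the constant exons of its cluster. Levels between genes are therefore given per kilobase of exon that no other listed gene covers, as CPM per kilobase. CPM are counts per 1000000 library counts, with each library total scaled by its TMM normalization factor. Strand remains unknown, so reads from Pcdhga12 or Pcdhgb7 and from Gm26672, which lies on the opposite strand, cannot be told apart. The same holds for Pcdhgc3 with BC037039 and for Pcdhb12 with Gm37446.

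Total counts ranged from 19524945 to 28544511 per library, and 1 count stood for 0.0346 to 0.0502 CPM. Kdm1a had 110, 112, 120 and 110 CPM in controls 1 to 4, and 94.0, 95.3, 90.9 and 94.2 CPM in knockouts 1 to 4. The groups did not overlap, and the knockout mean was 17% lower (log2 fold change -0.27, SE 0.05, edgeR adjusted p = 0.0194; exact two-sided permutation p = 0.0286, the smallest that 4 against 4 libraries allow). With 1 library left out, this call held in 3 of 8 fits, without control 2, control 4 or knockout 3, and the adjusted p reached 0.0765 without knockout 4. Control 2 and knockout 3 lay beside each other on the first principal component (9.56 and 9.71), between the other controls (-78.7 to -52.4) and the other knockouts (48.3 to 68.4). The summed level of 4 Y-linked genes was 1.85, 0.760 and 2.63 CPM in control 2, knockout 1 and knockout 4 and 229 to 289 CPM in the others. With their mean log2 level as a covariate, the same 2 members were called as without. That fit called 2079 genes in either direction, against 2751 without the covariate. Markers of the kidney were present in all libraries, but the summed level of 8 proximal tubule markers was 393 to 1589 CPM in controls and 69.6 to 305 CPM in knockouts. In bulk RNA, a change in the number of cells of a type and a change in RNA per cell cannot be told apart.

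The kidneys contained beta and gamma transcripts and only traces of alpha transcripts. Over the 8 libraries, the 58 genes received 27549 counts, 0.0142% of all counts, of which 52.2% fell on beta, 46.9% on gamma and 0.871% on alpha genes. These are shares of counts, not corrected for the exon bases that each cluster shares. The median level over members was 0.600 CPM per kilobase for beta, 0.676 for the 21 gamma members with an unshared base and 0.0335 for alpha, so the beta median was 17.9 times the alpha median. A mean of at least 1 CPM was reached by 18 of 22 beta, 20 of 22 gamma and 0 of 14 alpha members.

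**Figure D1:**
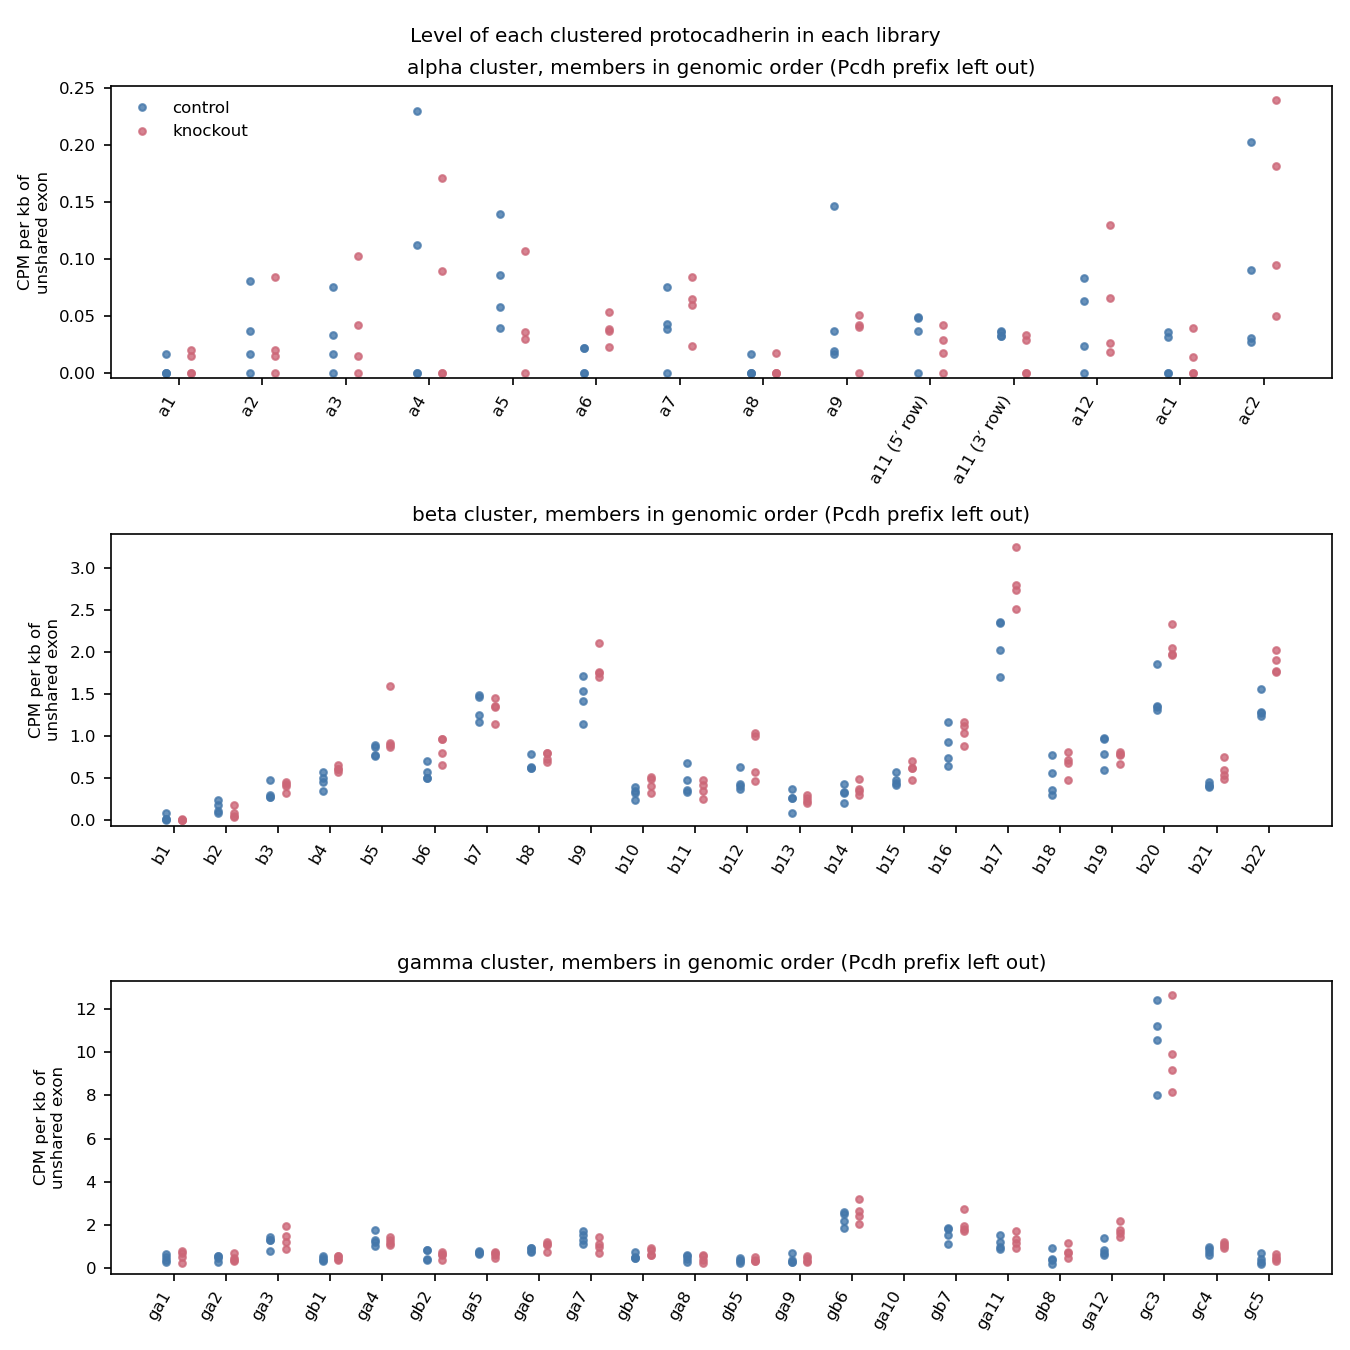
Level of every clustered protocadherin in each library, in CPM per kilobase of exon that no other listed gene covers, with members in genomic order and each cluster on its own vertical scale. Points are libraries, 4 control and 4 knockout. Pcdhga10 has no such exon base and no points, Pcdhgc3 stands above all other gamma members, and no alpha member exceeds 0.24 CPM per kilobase.

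Every alpha member was detected in at least 1 library, yet 33 of the 112 alpha values were 0, and the summed counts per member over 8 libraries ranged from 2 to 70. No alpha gene passed the filter on low counts; without that filter all 14 were tested by edgeR and none was called. Pcdhac2 (ENSMUSG00000102697), a C-type member, had the most counts: 15, 2, 2 and 6 in controls 1 to 4 and 13, 3, 21 and 8 in knockouts 1 to 4. The groups overlapped, and the highest value, 21 counts in knockout 3, stood for 0.727 CPM. Pcdhac1, the other C-type alpha gene, had 7 counts in all. Pcdha4 and Pcdha5, which encode alternate alpha isoforms, came next in level per kilobase, on 6 and 29 counts. The level of Pcdha4, 0.0753 CPM per kilobase, rests on 404 unshared bases; counting every base that no other member shares (2904 bases) it is 0.0105 CPM per kilobase, 11th of 14 members. The summed alpha level was 1.16 ± 0.478 CPM in controls and 1.26 ± 0.428 CPM in knockouts (SD, n = 4), which the depth could not separate.

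Within the beta cluster, Pcdhb17 (ENSMUSG00000046387, 37484795 to 37489454) had the highest level per kilobase in 8 of 8 libraries, with a mean of 2.46 CPM per kilobase, 1.39 times that of Pcdhb20. Pcdhb20, Pcdhb9 and Pcdhb22 followed at 1.77, 1.64 and 1.6 CPM per kilobase. Pcdhb1, the first gene of the cluster, had 8 counts in all and a level of 0.0166 CPM per kilobase, and Pcdhb2, the second, reached 0.123. These are isoforms of the same kind of protein, differing in the recognition surface of their extracellular part.

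In the gamma cluster, Pcdhgc3 (ENSMUSG00000102918, 37806364 to 37841873), a C-type isoform, had the highest level in 8 of 8 libraries. Its mean was 10.3 ± 1.79 CPM per kilobase (SD over 8 libraries, range 8.0 to 12.7), 4.23 times that of Pcdhgb6, the next member, 4.17 times that of Pcdhb17 and 15.2 times the gamma median. These values depend on strand: if exon bases shared with BC037039 on the opposite strand are counted in, a divisor chosen after seeing the data, the mean is 5.53 CPM per kilobase, still the highest of the cluster but 2.28 times Pcdhgb6, 2.24 times Pcdhb17 and 8.76 times the gamma median. Pcdhgb6 and Pcdhgb7, of the B subfamily, had 2.43 and 1.82 CPM per kilobase. The level of Pcdhgb7 also depends on strand. With exon bases shared with Gm26672 on the opposite strand counted in, it is 1.28 CPM per kilobase, 5th in the cluster instead of 3rd. The other C-type members were lower, Pcdhgc4 at 0.930 and Pcdhgc5 at 0.436 CPM per kilobase, the latter 19th of 21 members.

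Between genotypes, 2 of 41 tested members rose in the knockout, Pcdhb22 and Pcdhga12, and 0 fell at an adjusted p under 0.05 (edgeR quasi-likelihood test over 18485 genes). Of all genes tested, 14.9% were called, 6.61% higher and 8.27% lower, and the members' share of 4.88% was below that. Tested members numbered 20 beta and 21 gamma genes. The 17 others did not pass the filter on low counts, namely the 14 alpha genes, Pcdhb1, Pcdhb2 and Pcdhga10. At an unadjusted p under 0.05, 7 members were higher (5 beta and 2 gamma genes) and 0 lower, against 35.1% of all genes, 16.5% higher and 18.6% lower. Among the 41 tested members, values did not overlap between the groups, with all knockouts higher, for 6 (Pcdhb4, Pcdhb17, Pcdhb20, Pcdhb21, Pcdhb22 and Pcdhga12), against 9.29% of all genes tested. The groups were separate with all knockouts lower for 0 of the 41 and for 9.58% of all genes.

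Pcdhb22 (ENSMUSG00000073591, 37517871 to 37524479), the last gene of the beta cluster, had 7.95, 9.60, 7.87 and 7.64 CPM in controls 1 to 4 and 12.4, 11.7, 10.9 and 10.9 CPM in knockouts 1 to 4. All knockouts were above all controls, and control 2 was the highest control. The means were 8.26 ± 0.90 and 11.5 ± 0.730 CPM (SD, n = 4), a log2 fold change of 0.47 (SE 0.12, 95% interval 0.21 to 0.74, edgeR adjusted p = 0.0331). Without any filter on low counts the call was lost (edgeR adjusted p = 0.0621), in a fit that called 2.85% of 32504 genes higher. Its neighbour Pcdhb21, with which it shares 455 exon bases, had a log2 fold change of 0.50 and an adjusted p of 0.103 in edgeR.

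Pcdhga12 (ENSMUSG00000102428, 37765580 to 37841873), the last of the A subfamily and the 19th of 22 gamma genes from the 5′ end, had 2.95, 5.66, 3.39 and 2.55 CPM in controls 1 to 4. In knockouts 1 to 4 it had 7.22, 9.04, 6.64 and 5.97 CPM. Each knockout exceeded each control, though control 2 at 5.66 CPM came close to knockout 4 at 5.97 CPM. The log2 fold change was 0.99 (SE 0.26, 95% interval 0.40 to 1.58, edgeR adjusted p = 0.0380), the largest among the 41 tested members. Gm26672, the gene on the opposite strand, was not called, with 0.799 ± 0.600 CPM in controls and 1.51 ± 0.603 CPM in knockouts (SD, n = 4, log2 fold change 0.91, edgeR adjusted p = 0.242).

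Both calls depended on which libraries were included. When each library was left out in turn, Pcdhb22 and Pcdhga12 were called in 2 of 8 fits, those without control 2 and without knockout 3. In the 6 others no member was called in edgeR, and calls were fewer among all genes too. Those 6 fits called 153 to 695 genes in either direction, against 2751 with all libraries. They had 4 to 7 members at an unadjusted p under 0.05, a threshold at which their share of all genes is not given here. Adjusted p over these 8 fits ran from 0.00682 to 0.10 for Pcdhb22 and from 0.00218 to 0.107 for Pcdhga12. Without control 2, 5 members were called higher (Pcdhb17, Pcdhb20, Pcdhb22, Pcdhga12 and Pcdhgb8), in a fit that called 18.4% of all genes higher. Without knockout 3, Pcdhb22 and Pcdhga12 were called beside 7.74% of all genes. Without control 2 and knockout 3 together, 8 were higher (Pcdhb12, Pcdhb17, Pcdhb18, Pcdhb20, Pcdhb22, Pcdhga12, Pcdhgb4 and Pcdhgb8) and 1, Pcdhgc3, was lower, beside 20.5% and 22.2% of all genes. The log2 fold change stayed positive in all 17 alternative fits for Pcdhb22 (0.43 to 0.57) and Pcdhga12 (0.85 to 1.31).

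**Figure D2:**
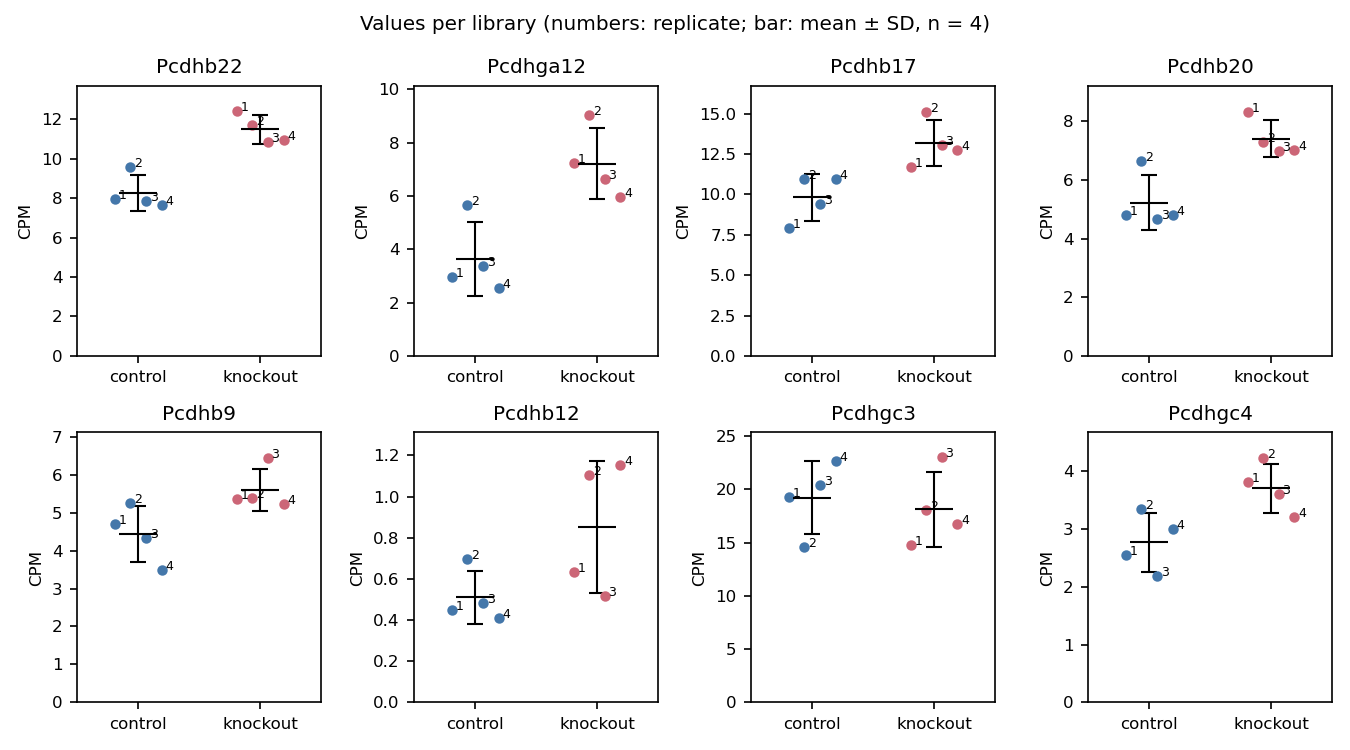
CPM in each library for Pcdhb22, Pcdhga12, Pcdhb17, Pcdhb20, Pcdhb9, Pcdhb12, Pcdhgc3 and Pcdhgc4, with the replicate number beside each point and the mean ± SD (n = 4) as bars; each panel has its own scale from 0. The groups separate for Pcdhb22, Pcdhga12, Pcdhb17 and Pcdhb20 and overlap for the others, and control 2 is the highest control in all panels except Pcdhb17 and Pcdhgc3.

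Pcdhb17 and Pcdhb20, the beta genes with the highest levels per kilobase, were not called in edgeR. Pcdhb17 had 7.95, 10.9, 9.40 and 11 CPM in controls 1 to 4 and 11.7, 15.1, 13.0 and 12.8 CPM in knockouts 1 to 4. These groups did not overlap (log2 fold change 0.42, SE 0.14, 95% interval 0.11 to 0.74, edgeR adjusted p = 0.0697). DESeq2 called it (adjusted p = 0.0317), with 4 members higher beside 9.36% of all genes, and limma-voom with sample weights called 8 members higher beside 22% of all genes. Pcdhb20 had 4.79, 6.63, 4.68 and 4.82 CPM in controls 1 to 4 and 8.32, 7.28, 6.99 and 7.01 CPM in knockouts 1 to 4. Control 2 lay apart from the other controls and just under the lowest knockout (log2 fold change 0.50, SE 0.16, 95% interval 0.15 to 0.85, edgeR adjusted p = 0.0595; DESeq2 adjusted p = 0.0208).

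Pcdhb9 had 4.71, 5.24, 4.32 and 3.50 CPM in controls 1 to 4 and 5.36, 5.37, 6.44 and 5.22 CPM in knockouts 1 to 4, with control 2 within the knockout range (log2 fold change 0.33, SE 0.17, edgeR adjusted p = 0.180). Pcdhb12 had the highest beta fold change, on low levels of 0.451, 0.696, 0.484 and 0.409 CPM in controls 1 to 4 and 0.634, 1.10, 0.519 and 1.15 CPM in knockouts 1 to 4. The groups overlapped, and the log2 fold change of 0.73 had an SE of 0.35 (edgeR adjusted p = 0.167). Pcdhb11 had the lowest, -0.32 (SE 0.29, edgeR adjusted p = 0.452), with 1.6, 3.01, 2.10 and 1.5 CPM in controls 1 to 4 against 1.10, 2.11, 1.52 and 1.83 CPM in knockouts 1 to 4.

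The single-exon beta genes and the gamma genes with constant exons were described side by side. Of 20 tested beta genes, 17 had a log2 fold change above 0, with a median of 0.36. Of 21 gamma genes, 14 did, with a median of 0.15, while among all genes tested 50.5% were above 0 and the median was 0.00. By subfamily, the median was 0.01 over 11 tested gamma A genes, 0.17 over 7 gamma B genes and 0.22 over 3 gamma C-type genes. The beta median was 0.29 to 0.43 over the alternative fits. The gamma median ranged from -0.01, without control 2 and knockout 3, to 0.28, without knockout 4. The number above 0 was 17 of 20 beta and 18 of 21 gamma genes with the Y-linked covariate, and 16 and 17 with the adrenal cortex covariate. It was 18 beta and 12 gamma genes with limma-voom, and 16 and 12 without knockout 2. Without control 2 and knockout 3 it was 18 beta and 10 gamma genes. The difference between the clusters was not tested, since members share libraries. Exon sharing cannot be told apart from the cluster itself.

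**Figure D3:**
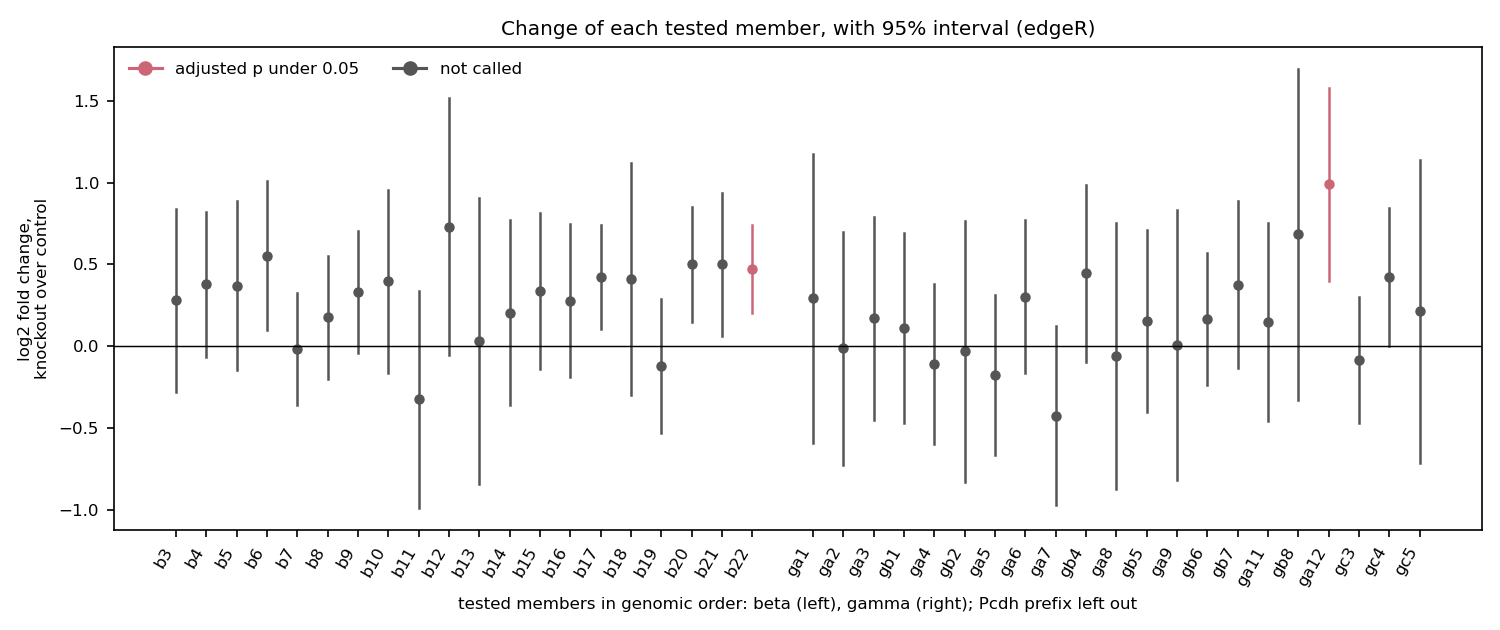
Log2 fold change, knockout over control, of the 41 tested members in genomic order, with 95% intervals from edgeR; beta genes are on the left and gamma genes on the right. Pcdhb22 and Pcdhga12 are the members with an adjusted p under 0.05; 17 of 20 beta points and 14 of 21 gamma points lie above 0.

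Summed over the beta cluster, controls 1 to 4 had 62.0, 78.6, 62.3 and 64.1 CPM and knockouts 1 to 4 had 78.4, 90.2, 80.7 and 80.5 CPM. Control 2 stood well above the other controls and inside the knockout range, so the groups overlapped. The knockout mean was 1.23 times the control mean (82.4 ± 5.28 against 66.8 ± 7.98 CPM, SD, n = 4). The gamma sum was 67.7, 58.7, 64.7 and 62.6 CPM in controls 1 to 4 and 67.2, 77.6, 77.2 and 59.6 CPM in knockouts 1 to 4. Knockouts 2 and 3 were above all controls, knockouts 1 and 4 were within the control range, and the ratio of means was 1.11 (70.4 ± 8.66 against 63.4 ± 3.77 CPM).

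Among the gamma C-type genes, Pcdhgc3 had 19.3, 14.6, 20.5 and 22.6 CPM in controls 1 to 4 and 14.8, 18, 23.0 and 16.7 CPM in knockouts 1 to 4. The ranges coincided almost fully (log2 fold change -0.08, SE 0.17, 95% interval -0.47 to 0.30, edgeR adjusted p = 0.753). Control 2, the highest control for Pcdhb20 and Pcdhb22, was the lowest control here. Pcdhgc4, an isoform known for its role in neuron survival, had 2.54, 3.34, 2.18 and 3.0 CPM in controls 1 to 4 against 3.8, 4.22, 3.60 and 3.2 CPM in knockouts 1 to 4. Knockout 4 lay below control 2 (log2 fold change 0.42, SE 0.19, edgeR adjusted p = 0.142). Pcdhgc5 varied widely within both groups, from 0.807 to 3.25 CPM in controls and from 1.44 to 3.01 CPM in knockouts (log2 fold change 0.22, SE 0.41, edgeR adjusted p = 0.730).

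Of the other gamma genes named by level or change, Pcdhgb6 had 4.78 to 6.64 CPM in controls and 5.25 to 8.17 CPM in knockouts (log2 fold change 0.17, SE 0.18, edgeR adjusted p = 0.525). Pcdhgb7 had 2.05 to 3.39 CPM in controls and 3.13 to 5.02 CPM in knockouts (log2 fold change 0.38, SE 0.23, edgeR adjusted p = 0.256). Both ranges overlapped. Pcdhga7 had the lowest log2 fold change of all 41 members, -0.42 (SE 0.24, edgeR adjusted p = 0.236), with 4.42, 2.87, 3.96 and 3.32 CPM in controls 1 to 4 and 3.67, 1.81, 2.56 and 2.81 CPM in knockouts 1 to 4. The median SE was 0.20 for beta and 0.26 for gamma genes.

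The make-up of the gamma counts was compared by class between the genotypes. The 12 A genes took 36.7% ± 2.05 of gamma counts in controls and 38.1% ± 2.12 in knockouts, the 7 B genes 25.7% ± 1.70 and 27.8% ± 2.48, and Pcdhgc4 with Pcdhgc5 7.38% ± 2.76 and 8.30% ± 0.770 (SD, n = 4 each). Pcdhgc3 alone took 30.3% ± 4.83 in controls, from 24.8% in control 2 to 36.2% in control 4, and 25.8% ± 3.76 in knockouts, from 22.0% to 29.9%. For these 4 classes the groups overlapped. Pcdhga12 took 5.82% ± 2.59 of gamma counts in controls and 10.3% ± 1.28 in knockouts; the 9.63% of control 2 was above the 8.61% of knockout 3.

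**Figure D4:**
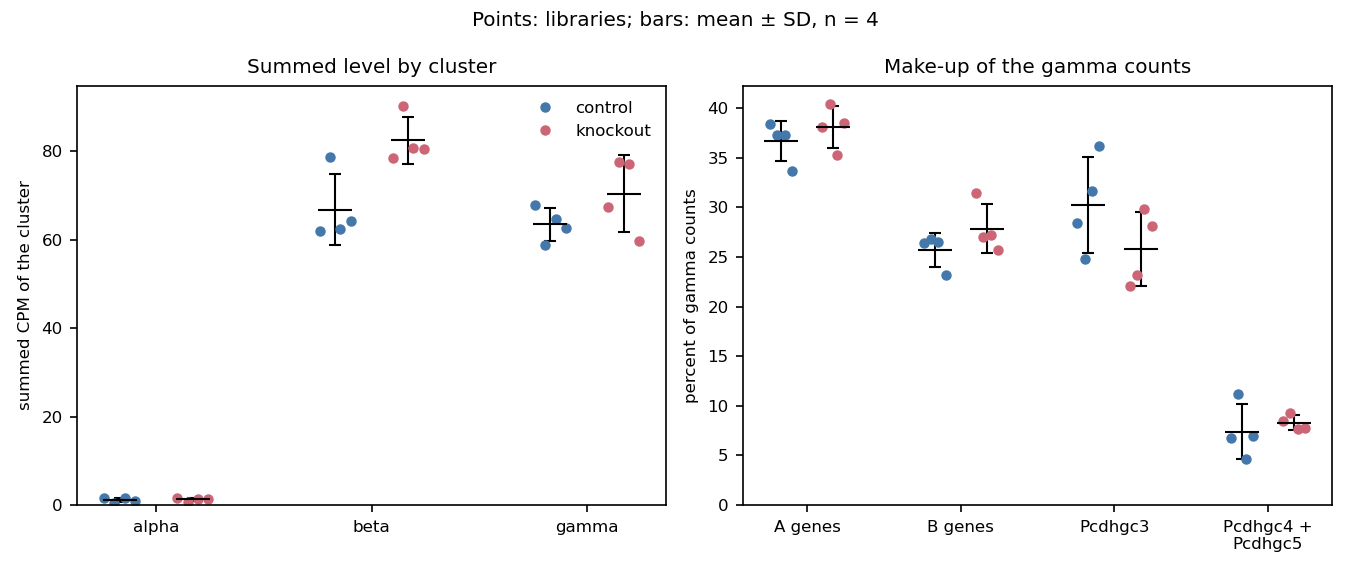
Left, summed CPM of the alpha, beta and gamma clusters per library; right, percent of gamma counts that fell on A genes, B genes, Pcdhgc3, and Pcdhgc4 with Pcdhgc5. Points are libraries and bars are mean ± SD (n = 4). The control point at 78.6 CPM in the beta sum is control 2, and Pcdhgc3 alone makes up 22.0% to 36.2% of gamma counts.

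Because these genes are known best from neurons, markers of other cells were measured in the same libraries. The summed level of 12 neuronal markers was 87.1 to 171 CPM in controls and 146 to 366 CPM in knockouts, with control 2 the highest control. Of these 12 markers, 3 rose and 0 fell in edgeR, a share of 25%. Of all genes, 14.9% were called, 6.61% higher and 8.27% lower. The summed level of 10 chromaffin and sympathetic markers was 220 and 185 CPM in knockouts 1 and 4, 16.8 and 14.4 CPM in knockouts 2 and 3, and 25.1 to 53.5 CPM in controls. Of the 8 that were tested, 7 had a log2 fold change above 0, with a median of 2.36. In edgeR 0 rose and 1 fell, a share of 12.5% against 14.9% of all genes. The marker that fell was Slc18a1, a vesicular monoamine transporter named after its values were seen. It went from 17.5 ± 9.76 to 2.46 ± 1.55 CPM (SD, n = 4, edgeR adjusted p = 0.0222). In knockouts 1 to 4, the beta sums were 78.4, 90.2, 80.7 and 80.5 CPM, and Pcdhga12 was at 7.22, 9.04, 6.64 and 5.97 CPM. A relation of these values to the markers was not tested. The sum of 9 adrenal cortex markers reached 3236 CPM in knockout 1 and 351 CPM in knockout 4 but 15.3 CPM in knockout 2. With their mean log2 level as a covariate, no member was called (Pcdhb22 adjusted p = 0.0773, Pcdhga12 adjusted p = 0.0581 in edgeR), in a fit that called 3.18% of all genes higher. It had 11 members at an unadjusted p under 0.05, a threshold at which its share of all genes is not given here. In that fit the log2 fold change was 0.46 for Pcdhb22 and 1.12 for Pcdhga12.

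The summed level of 9 fibroblast markers was 2924, 4138, 2855 and 2935 CPM in controls 1 to 4 and 3340, 5705, 4781 and 4778 CPM in knockouts 1 to 4. As in the beta sum, control 2 was the highest control and knockout 2 the highest library. This order was not particular to fibroblast markers. It also held for the summed levels of the 29 regulators and 16 cytoplasmic partners described below, and on the first principal component. It did not hold for the neuronal markers, which were highest in knockout 4. Of the 9 fibroblast markers, 1 rose and 0 fell in edgeR, a share of 11.1% against 14.9% of all genes. Glial markers (8 genes) summed to 52.4 to 60.6 CPM in controls and 53.4 to 67.5 CPM in knockouts. No marker in these lists was at 0 in every library. The part of any of these cells in the protocadherin values was not tested.

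Outside the clusters, protocadherins with their own loci moved in both directions. Of 12 non-clustered protocadherins, all tested, 2 rose and 1 fell, with a median log2 fold change of 0.43; of all genes, 6.61% were called higher and 8.27% lower. Pcdh7, an adhesion receptor with a delta-type tail, rose from 23.8 ± 9.14 to 45.2 ± 5.15 CPM (log2 fold change 0.93, edgeR adjusted p = 0.0312). Pcdh15, a component of hair-cell tip links, rose from 2.78 ± 1.0 to 5.23 ± 0.497 CPM (0.91, edgeR adjusted p = 0.0371). Pcdh8, also called paraxial protocadherin, fell from 2.27 ± 0.240 to 1.10 ± 0.381 CPM (-1.04, edgeR adjusted p = 0.0330; SD, n = 4 throughout). Control 2 was the highest control for Pcdh7, at 37.1 CPM. Each of the 3 calls held in 2 of 8 fits that left out 1 library, without control 2 and without knockout 3 (knockout 2 for Pcdh8), and the adjusted p reached 0.0916 for Pcdh7, 0.0928 for Pcdh8 and 0.110 for Pcdh15.

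Of 29 regulators of promoter choice and silencing, 3 rose and 1 fell in edgeR, with a median log2 fold change of 0.09. The share called, 13.8%, was close to the 14.9% of all genes. Tet1, which oxidises methylated cytosine, rose from 25.8 ± 3.98 to 39.3 ± 4.25 CPM (log2 fold change 0.60, edgeR adjusted p = 0.0196). Atf7ip, a partner of the histone methyltransferase SETDB1, rose from 100.8 ± 3.62 to 121 ± 5.22 CPM (0.27, edgeR adjusted p = 0.0225). Suv39h2, a methyltransferase of histone H3, fell from 14.3 ± 1.24 to 10.4 ± 0.960 CPM (-0.46, edgeR adjusted p = 0.0330). With 1 library left out, Tet1 and Atf7ip were called in 2 of 8 fits (without control 2 and without knockout 3) and Suv39h2 in 1 (without control 2), with adjusted p up to 0.0630, 0.0742 and 0.103. The remaining call and the following genes were named after their values were seen: Pds5b, a cohesin cofactor, rose (0.33, edgeR adjusted p = 0.0466), while Ctcf (-0.01), Setdb1 (0.03) and Smchd1 (-0.18, edgeR adjusted p = 0.0790) were not called.

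**Figure D5:**
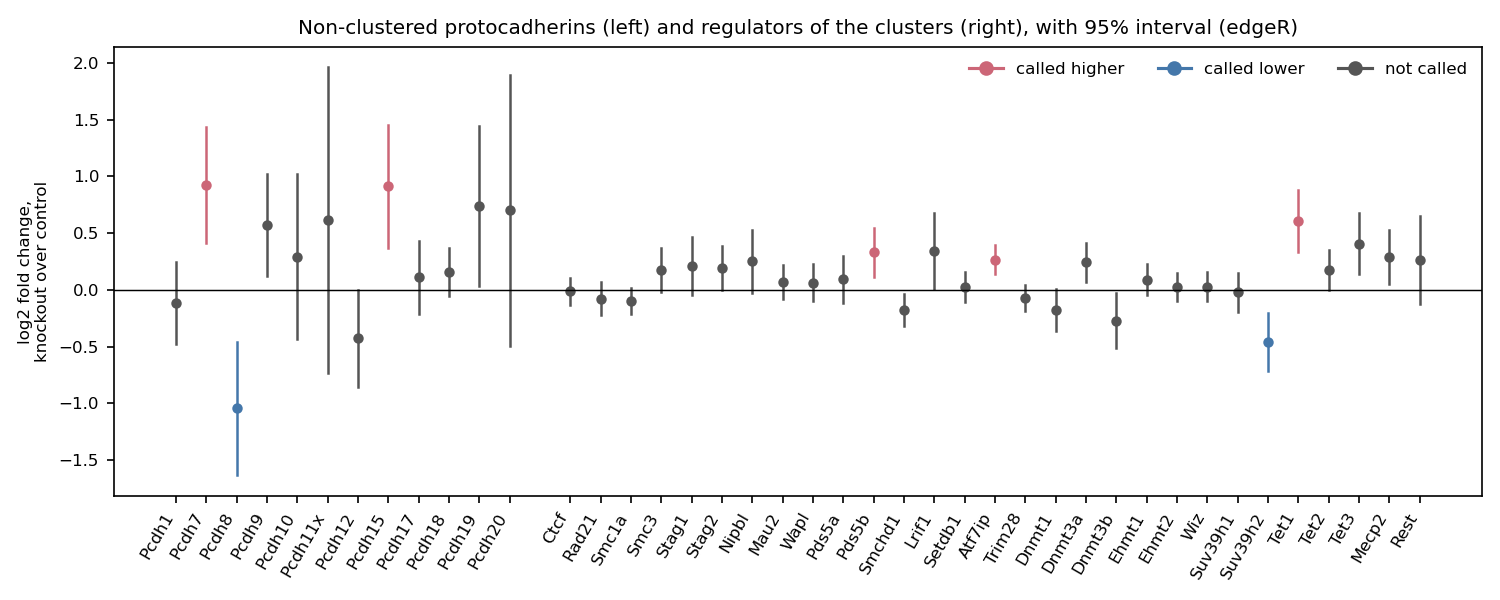
Log2 fold change, knockout over control, with 95% intervals from edgeR, of 12 non-clustered protocadherins (left) and 29 regulators of the clusters (right). Among the former, 2 were called higher and 1 lower; among the latter, 3 were called higher and 1 lower.

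Among 16 cytoplasmic partners, 1 rose and 0 fell in edgeR, a share of 6.25% against 14.9% of all genes. Ret, the receptor tyrosine kinase that associates with clustered protocadherins and drives ureteric budding, rose from 100.9 ± 38.0 to 178 ± 21.2 CPM (log2 fold change 0.82, edgeR adjusted p = 0.0437). Abi1, a subunit of the WAVE complex, had 0.33 (adjusted p = 0.0518), and Ptk2, the focal adhesion kinase bound by the constant tail, had -0.19 (adjusted p = 0.0527, both edgeR). For Ret, the highest control had 154 CPM and the lowest knockout 159 CPM. Its call held in 2 of 8 fits that left out 1 library, without control 2 and without knockout 3 (adjusted p up to 0.123 in the others).

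Genes that start within 1 Mb of the clusters, Pcdh1 and Pcdh12 among them, were compared as their genomic surroundings. Of 44 tested neighbours, 16 had a log2 fold change above 0, 1 rose and 4 fell in edgeR, and the median was -0.07. The share called was 11.4% against 14.9% of all genes, of which 50.5% had a log2 fold change above 0. Fgf1, a growth factor, fell from 48.6 ± 7.59 to 29.9 ± 2.96 CPM (log2 fold change -0.70, edgeR adjusted p = 0.0143). Pfdn1, a prefoldin subunit, fell from 93.0 ± 13.0 to 70.4 ± 3.28 CPM (-0.40, edgeR adjusted p = 0.0331). Psd2 rose from 1.77 ± 0.889 to 4.32 ± 1.09 CPM (1.29, edgeR adjusted p = 0.0390; SD, n = 4). With 1 library left out, Fgf1 was called in 7 of 8 fits (adjusted p = 0.0613 without knockout 4), and Pfdn1 and Psd2 in 2 of 8, without control 2 and without knockout 3 (adjusted p up to 0.103 and 0.112). The other calls, named after their values were seen, were Slc35a4 (-0.38, adjusted p = 0.0416) and Gnpda1 (-0.68, adjusted p = 0.0392), both lower.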

How the data were processed

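Per the file headers, the authors deposited raw whole-number counts per Ensembl gene with exon coordinates, and per the submitters' processing notes the tools were Trimmomatic 0.36, STAR 2.5.2b, featureCounts of Subread 1.5.2 and DESeq2, on GRCm38. Per the labels' protocols, mRNA was captured with oligo-dT beads from frozen kidney. Strand and multi-gene reads in counting are not given in the sources used here. Symbols came from GENCODE M21 (48970 of 49315 identifiers). The symbol Pcdha11 was carried by 2 rows, which were kept apart.

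Counts were scaled by TMM, filtered with filterByExpr and tested with edgeR 4.0.16 in R 4.3.3 (control against knockout, no covariate, 4 libraries each). P-values were adjusted by Benjamini-Hochberg over 18485 genes, and an adjusted p under 0.05 is a call. Standard errors follow from each fold change and its F statistic. The script was tested on simulated data. No 2 libraries agreed within sampling noise (smallest chi-square per degree of freedom 11.0 over 28 pairs).

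Genes named were, in each cluster, called members, the 3 highest by level per kilobase, the lowest and highest fold change, and C-type members; in other lists, the 3 smallest adjusted p-values. Members, lists and tests were chosen with earlier results of these data known. Alternatives were DESeq2 1.42.0, its size factors, limma-voom (limma 3.58.1) with sample weights, other filters, a replicate block, Y-linked and adrenal covariates, and leaving out libraries.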

Additional observations from a re-analysis of the deposited data

Results flagged for a closer look

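In 4 of 32 groups of 4 libraries examined, a single library stood apart from the other 3 by a gap, relative to the group's range, above Dixon's 95% critical value, which chance meets in about 1 in 20 groups; the groups share libraries and members. For 3 of the 4 it was control 2, the control that lay beside knockout 3 on the first principal component. Pcdhb20 had 6.63 CPM in control 2 against 4.68 to 4.82 CPM in the other controls. Pcdhb22 had 9.60 CPM in control 2 against 7.64 to 7.95 CPM. The summed level of the beta cluster was 78.6 CPM in control 2 against 62.0 to 64.1 CPM. In the fourth, Pcdhb9 had 6.44 CPM in knockout 3 against 5.22 to 5.37 CPM in the other knockouts.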

How the results depend on the processing

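Members called higher numbered 2 in edgeR (all genes called higher: 1222), 4 with DESeq2 (1945) and 8 with limma-voom and sample weights (4061). The number was 1 without a filter (925), 0 with the adrenal cortex covariate (588) and 8 without control 2 and knockout 3 (3791). In that last fit 1 member, Pcdhgc3, was lower, and no other setting called a member lower. In the same order, all genes called in either direction numbered 2751, 4423, 8302, 2392, 1218 and 7903. Leaving out 1 library at a time gave 0 to 5 members called higher and 153 to 7084 genes called in either direction. Kdm1a log2 fold changes in these fits were -0.29 to -0.24 (adjusted p 0.00691 to 0.0765, edgeR, called in 3 of 8 fits). The cause of these shifts was not tested. Signs reversed, without a call, for Pcdhgc3 (0.027 with the Y-linked covariate, 0.0026 without knockout 1; -0.20 to 0.0026 with 1 library left out), Pcdhgc5 (-0.037 without control 3; -0.037 to 0.62 with 1 left out) and Pcdhgb6 (-0.046 without control 2 and knockout 3). The other named genes that were followed over the settings kept their direction in every setting run. The alpha genes, Gm26672 and the genes named after their values were seen were not followed. Over all 424 combinations of a followed gene and a setting, 79 lost a call and 23 gained one. Same-numbered libraries had correlations of -0.11 to 0.33, over 0.1 in 2 of 4 pairs, so numbers were not taken as pairs; the fit with the replicate block called 2 members higher, 0 lower and 3229 genes, with Kdm1a at -0.27. Depth limits the alpha cluster, of which no member passed the filter with all 8 libraries in edgeR, and the low beta and gamma genes.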
